A study of Mus musculus with 6 samples.

Results

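Cxcl10 and 8 genes of the interferon response, Irf1, Irf7, Irf9, Ifit1, Ifit3, Isg15, Usp18 and Bst2, were examined by RNA-Seq in sciatic nerves of mice that lack Rnf40 in Schwann cells. These 9 of the 24015 gene symbols counted were chosen by the read counts of Cxcl10, which were higher in the libraries of the mutant, so their values in this comparison are a description and carry no test. Control mice were Rnf40 fl/fl, and Rnf40ΔSC mice were Rnf40 fl/fl with a Dhh::Cre transgene, both of a mixed 129SvJ/C57Bl/6J background per the labels. Dhh::Cre acts in the Schwann cell lineage, and the study found Rnf40 kept in other cells of the embryonic nerve. Each genotype was represented by 3 libraries from postnatal day 14, each made from the pooled RNA of 3 nerves, so that differences between animals within a pool are averaged out. Rnf40 is a subunit of the E3 ligase that attaches ubiquitin to histone H2B, and the comparison asks which transcripts of the nerve differ when Schwann cells lack it.

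The 3 control libraries held 1317167, 1992622 and 2468765 reads assigned to genes. In the same order of replicates, the 3 Rnf40ΔSC libraries held 2184268, 1459387 and 2186710. A single read stood for 0.411 to 0.818 CPM (counts scaled to a common library size) after scaling by the trimmed mean of M-values (TMM), which adjusts library sizes for composition. Up to 3 reads in a library were treated as undetected, which is 1.23 to 2.46 CPM. Rnf40ΔSC replicate 3 stood apart from its group in muscle RNA. The summed level of 15 skeletal muscle genes was 4828, 3702 and 2748 CPM in control libraries and 100.2, 264 and 3456 CPM in Rnf40ΔSC libraries 1, 2 and 3, with Myh4, a myosin of fast muscle fibres, as the gene with the highest CPM. Muscle genes were thus low in Rnf40ΔSC replicates 1 and 2 and at the control level in replicate 3. Without Rnf40ΔSC replicate 3, the log2 fold change of Cxcl10 was 3.88 in place of 3.81 and 1915 in place of 1756 genes were called higher.

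Interferons are secreted proteins that cells release on contact with viral or misplaced nucleic acids. Type I interferons bind the receptor chains Ifnar1 and Ifnar2 and interferon-gamma binds Ifngr1 and Ifngr2, and kinases such as Jak1 then pass the signal on. Stat2 and Irf9 are parts of the factor ISGF3, which binds the interferon-stimulated response element (ISRE) in front of target genes such as Ifit1 or Isg15, while interferon-gamma acts through the gamma-activated site (GAS). Cxcl10 is a chemokine that attracts T cells and NK cells through the receptor Cxcr3, and NF-kB as well as interferon can induce it. In injured peripheral nerve, chemokines are known to recruit immune cells.

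As a check of the labels, Rnf40 itself (chromosome 7, 134732212 to 134747119, plus strand, in the GENCODE vM1 annotation of mm9) had 82, 116 and 165 reads in control and 109, 75 and 118 reads in Rnf40ΔSC libraries. Scaled for library size, its level was 68.5 ± 4.20 CPM (SD, n = 3) in control and 47.1 ± 1.12 CPM (SD, n = 3) in Rnf40ΔSC nerves, and the groups did not overlap. Rnf40 was lower in Rnf40ΔSC nerves (log2 fold change -0.54, SE 0.14, edgeR adjusted p = 0.00242), as its label says. Scaled by total counts, the log2 fold change was -0.27 and the edgeR adjusted p 0.12, the highest of all alternatives (range 0.00235 to 0.12). The counts cover the whole gene and all cells of the nerve, and the source of the remaining Rnf40 reads was not tested.

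Of the 9 genes, Cxcl10 was the only one whose libraries did not overlap between the genotypes. Cxcl10 (chromosome 5, 92775664 to 92777915, minus strand, in mm9) had 3, 0 and 4 reads in control libraries and 42, 38 and 43 reads in Rnf40ΔSC libraries. All 3 Rnf40ΔSC libraries were thus high and alike, and the controls lay near the limit of detection. The level was 1.41 ± 1.27 CPM (SD, n = 3) in control and 19.7 ± 3.35 CPM (SD, n = 3) in Rnf40ΔSC nerves. The log2 fold change was 3.81 (SE 0.45). Because the control value rests on 7 reads, the ratio of the pooled reads was also computed, which was 14.4 with an exact 95% interval of 6.80 to 36.7. Such intervals cover counting error only, as amplified reads are not independent molecules.

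In the other 8 genes the groups overlapped, and Isg15 had too few reads to compare its difference with that of Cxcl10. Irf1, a transcription factor induced by interferon-gamma (chromosome 11, 53583516 to 53591876, plus strand), had 20, 44 and 58 reads in control and 66, 44 and 45 reads in Rnf40ΔSC libraries. Its levels of 22.3 ± 5.14 and 24.6 ± 5.35 CPM (SD, n = 3 each) overlapped, with a log2 fold change of 0.09 (SE 0.22). Irf9, the DNA-binding subunit of ISGF3 (chromosome 14, 56222408 to 56228867, plus strand), had 20, 35 and 40 reads in control and 50, 29 and 54 reads in Rnf40ΔSC libraries. For Irf9, too, the groups overlapped, with 17.9 ± 1.66 and 20.5 ± 2.21 CPM (SD, n = 3 each) and a log2 fold change of 0.20 (SE 0.22). Irf7, the factor that amplifies type I interferon production (chromosome 7, 148448605 to 148452380, minus strand), had 1, 5 and 4 reads in control and 11, 2 and 3 reads in Rnf40ΔSC libraries. Only Rnf40ΔSC replicate 1 lay above the controls, and the ratio of pooled reads was 1.31 (exact 95% interval 0.561 to 3.24).

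Ifit1 and Ifit3 encode proteins that bind foreign RNA and are among the genes most readily induced by type I interferon. Ifit1 (chromosome 19, 34715361 to 34724499, plus strand) had 4, 10 and 19 reads in control and 10, 5 and 4 reads in Rnf40ΔSC libraries. Its ratio of pooled reads was 0.473 (exact 95% interval 0.254 to 0.857), but the values of 5.77 ± 2.58 and 3.00 ± 1.31 CPM (SD, n = 3 each) overlapped. Ifit3 (chromosome 19, 34658021 to 34663221, plus strand) had 5, 14 and 13 reads in control and 13, 9 and 10 reads in Rnf40ΔSC libraries. The Ifit3 groups overlapped as well, at 5.91 ± 1.89 and 5.08 ± 0.842 CPM (SD, n = 3 each), and the log2 fold change was -0.26 (SE 0.41).

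Isg15, Usp18 and Bst2 had, with Irf7, the fewest reads of the 9 genes. Isg15 encodes a ubiquitin-like protein (chromosome 4, 155573533 to 155574927, minus strand) and had 1, 1 and 0 reads in control and 3, 0 and 1 reads in Rnf40ΔSC libraries. It was undetected in both genotypes at this depth, so no fold change is given. Usp18 removes Isg15 from proteins and dampens signalling at the type I receptor (chromosome 6, 121195924 to 121220934, plus strand). It had 7, 3 and 5 reads in control and 1, 3 and 1 reads in Rnf40ΔSC libraries, a ratio of 0.274 (exact 95% interval 0.0779 to 0.793) with overlapping groups. Bst2, or tetherin, holds enveloped viruses at the cell surface (chromosome 8, 74058163 to 74061336, minus strand). It had 5, 4 and 9 reads in control and 6, 1 and 6 reads in Rnf40ΔSC libraries, a ratio of 0.594 (exact 95% interval 0.267 to 1.28), and these groups overlapped too.

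**Figure D1:**
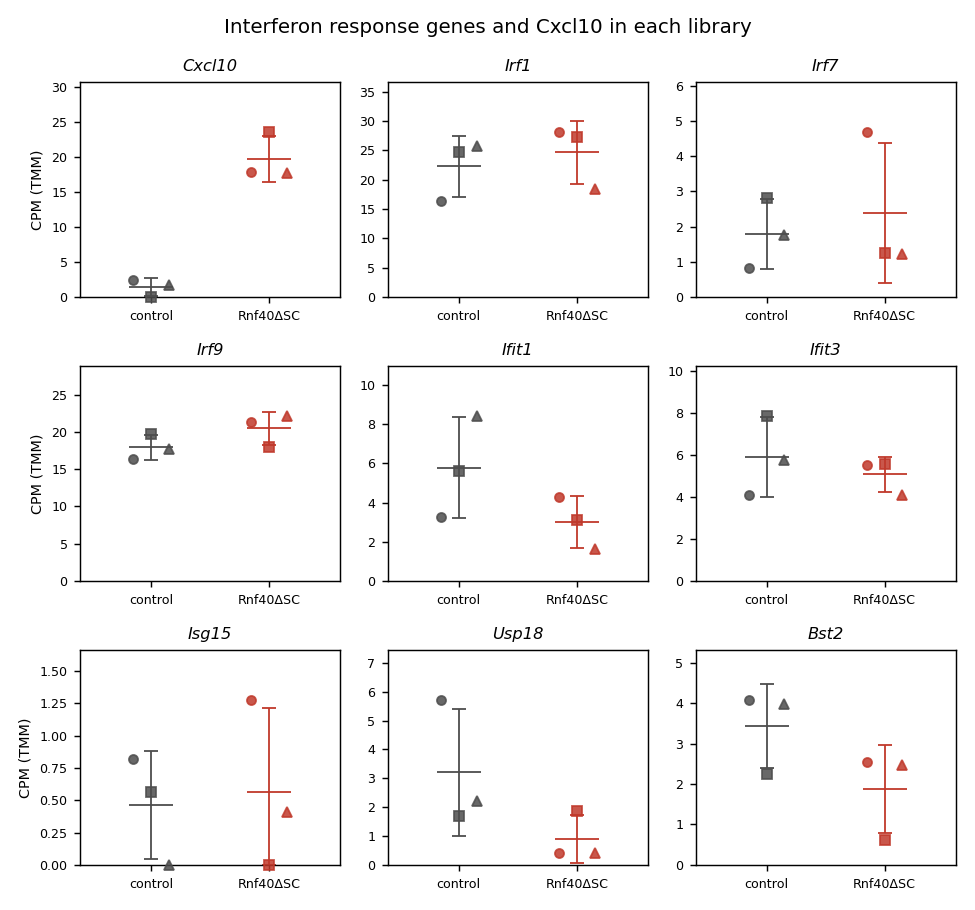
Level of each of the 9 genes in CPM after TMM scaling (vertical axes, from 0, each with its own scale) in the 3 control and 3 Rnf40ΔSC libraries; circles, squares and triangles are replicates 1, 2 and 3, horizontal lines are means and error bars SD, drawn no lower than 0. Cxcl10 lies at 17.6 CPM or more in every Rnf40ΔSC library and at 2.46 CPM or less in every control library, whereas the groups overlap for the other 8 genes.

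A gene is called changed below where edgeR's quasi-likelihood test over all genes gave a Benjamini-Hochberg adjusted p of at most 0.05. Of all 11371 genes with enough reads for the test, 31.6% were called, 15.4% as higher and 16.2% as lower in Rnf40ΔSC nerves. Counts of called genes in every list below are to be read beside these shares. The test covered 4 of the 9 genes, Cxcl10, Irf1, Irf9 and Ifit3, and Cxcl10 was 1 called gene among these 4. The groups did not overlap for 43.6% of all genes tested, with 21.8% higher and 21.8% lower in Rnf40ΔSC nerves, against 1 of the 9 genes. Nothing is read from these counts, as the genes were chosen in the same comparison. Irf7, Ifit1, Isg15, Usp18 and Bst2 had too few reads for the test.

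To compare levels between genes, CPM were divided by the kilobases of exon, with every annotated exon base of a gene counted once. The order thus depends on the annotation: Irf9 has 5386 such bases but 2959 in its longest coding transcript, whereas Bst2 has 764 in both. By this measure Cxcl10 ranked 7 of 9 in control nerves, at 0.928 ± 0.834 CPM per kb (SD, n = 3). Irf1 had the highest control level at 5.6 ± 1.29 CPM per kb, followed by Bst2 (4.51 ± 1.36), Ifit3 (3.39 ± 1.08), Irf9 (3.33 ± 0.307), Ifit1 (2.17 ± 0.972) and Usp18 (1.81 ± 1.24). Isg15 (0.609 ± 0.554) and Irf7 (0.596 ± 0.329) came last. Irf9 and Ifit1 differed by more than the larger of their 2 SD, and the other neighbours in this order did not. In Rnf40ΔSC nerves Cxcl10 was the most abundant of the 9 at 13 ± 2.2 CPM per kb (SD, n = 3), above Irf1 (6.2 ± 1.35) and Irf9 (3.8 ± 0.41), and these 3 were separated by more than their SD. The other 6 ran from Ifit3 (2.91 ± 0.482) over Bst2, Ifit1, Irf7 and Isg15 to Usp18 (0.508 ± 0.471), with each pair of neighbours within the larger of their 2 SD. The control rank of Cxcl10 rests on 7 reads, and its change of rank follows from the way the genes were chosen.

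The promoters of these genes were compared because ISRE-bearing genes are the direct targets of ISGF3. Windows of 300 bases, from 250 before to 50 after the start, were taken from RefSeq (GRCm38.p6) for 8 of the 9 genes, all except Usp18. The letters GAAANNGAAA, the core of the ISRE, were present on either strand in 5 of the 8, namely Cxcl10, Ifit1, Ifit3, Isg15 and Bst2, and in 3.44% of all 32851 promoter windows. The GAS letters TTCNNNGAA, which read the same on both strands, were present in Irf1 and Bst2 and in 8.3% of all windows. The consensus of NF-kB was found in Cxcl10, Irf1 and Bst2 and in 8.46% of all windows. Cxcl10 thus shared the ISRE letters with Ifit1, Ifit3, Isg15 and Bst2, and the NF-kB letters with Irf1 and Bst2. Of the genes that shared its ISRE letters, only Ifit3 had enough reads for the test described above. Whether either motif bears on the difference in Cxcl10 was not tested. A match is a description of the sequence and does not show that a factor binds.

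In the Cxcl10 window (chr5:92348840-92349139, minus strand, GRCm38.p6), shown whole because Cxcl10 alone of the 9 had groups without overlap, the capitals mark from left to right the ISRE core, 213 bases before the start, a first NF-kB match, 159 bases before it, and a cluster of overlapping NF-kB matches at 104 and 103 bases before it. For the other 4 genes the stretch around the ISRE core is shown, with every core match in capitals: Ifit1 (chr19:34640760-34640838, plus strand), Ifit3 (chr19:34583348-34583441, plus strand), Isg15 (chr4:156200850-156200921, minus strand) and Bst2 (chr8:71537562-71537627, minus strand). Ifit1 and Ifit3 carry the core on the opposite strand. Adjoining matches overlap in Isg15 and Bst2. The GAS and NF-kB matches of Bst2 overlap each other, and the GAS match also overlaps the ISRE core.
Cxcl10: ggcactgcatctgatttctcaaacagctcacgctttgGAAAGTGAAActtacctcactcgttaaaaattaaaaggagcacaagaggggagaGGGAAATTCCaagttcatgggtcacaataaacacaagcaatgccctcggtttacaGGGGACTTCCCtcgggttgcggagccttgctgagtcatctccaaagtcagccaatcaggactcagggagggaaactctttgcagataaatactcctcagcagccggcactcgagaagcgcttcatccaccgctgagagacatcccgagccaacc
Ifit1: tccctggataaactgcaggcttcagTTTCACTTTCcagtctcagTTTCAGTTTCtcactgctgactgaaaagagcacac
Ifit3: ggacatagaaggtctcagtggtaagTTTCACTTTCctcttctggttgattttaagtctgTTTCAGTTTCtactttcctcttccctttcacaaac
Isg15: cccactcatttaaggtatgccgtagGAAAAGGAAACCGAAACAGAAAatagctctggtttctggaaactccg
Bst2: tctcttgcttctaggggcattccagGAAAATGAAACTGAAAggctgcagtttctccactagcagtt

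In mm9, Cxcl10 lies between Cxcl9 (chromosome 5, 92750357 to 92757105) and Cxcl11 (92788570 to 92794511), the other ligands of Cxcr3, all on the minus strand. Cxcl10 and Cxcl11 both lie within Art3, a gene of the plus strand (92760853 to 92843654), and 133 exon bases of Cxcl10 are shared with Art3. Because the strand setting of the counting is not given in the sources used here, reads of such opposite genes might not be told apart. Art3, an ADP-ribosyltransferase that was looked up after its values were seen, had 277, 440 and 590 reads in control and 282, 165 and 232 reads in Rnf40ΔSC libraries. It was lower in Rnf40ΔSC nerves (log2 fold change -1.21, SE 0.10, edgeR adjusted p = 7.3e-12), the opposite direction to Cxcl10. Nup54, which begins beyond the end of Art3, encodes a nuclear pore protein and was also looked up after its values were seen. It had 16, 24 and 35 reads in control and 58, 38 and 56 in Rnf40ΔSC libraries. Nup54 was higher (log2 fold change 0.74, SE 0.23, edgeR adjusted p = 0.0101), although DESeq2 did not call it (adjusted p = 0.0878, range over all alternatives 0.000436 to 0.0878). Stretches of at least 50 bases that recur elsewhere in mm9 made up 0% of the coding transcripts of Cxcl10, Irf1, Irf7, Usp18 and Bst2, 2.06% to 3.09% of those of Irf9, Ifit1 and Ifit3 and 7.28% of that of Isg15. Exon bases are also shared by Irf1 with Gm17334 (135 bases), by Irf7 with Phrf1 (45) and by Irf9 with Rnf31 (123), which leaves a corresponding part of their reads uncertain.

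The genes of the pathway were next followed from the ligands to the targets, leaving out the 9 genes above. Interferon transcripts were not detectable at this depth. Of 21 interferon genes, 20 had 0 reads in all 6 libraries, among them Ifnb1 and Ifng, and Ifna7 had 1 read in control replicate 2.

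The 5 receptor chains with enough reads were expressed in both genotypes. Of 6 receptor genes 5 were tested and 2 were called, both lower, beside 31.6% called over all genes, 16.2% as lower. The median log2 fold change was -0.12 against -0.00255 over all genes. With total-count scaling 1 was called higher and 1 lower, and the median was 0.149 against 0.267. Il10rb, which serves in the receptors of interferon-lambda and of interleukin-10, was lower in Rnf40ΔSC nerves (log2 fold change -0.66, SE 0.15, edgeR adjusted p = 0.000597). Ifngr2, the accessory chain for interferon-gamma, was lower by -0.44 on the log2 scale (SE 0.13, edgeR adjusted p = 0.00604), a call lost with total-count scaling (adjusted p = 0.28) and with DESeq2 (0.0573; range 0.00554 to 0.28). The chain with the highest CPM, Ifnar1, had a log2 fold change of 0.11 (SE 0.11, edgeR adjusted p = 0.469) and levels of 122 ± 12.8 and 132 ± 8.66 CPM (SD, n = 3 each). With total-count scaling Ifnar1 was called (log2 fold change 0.38, edgeR adjusted p = 0.005, range 0.005 to 0.742). The last receptor, Ifnlr1, had too few reads for the test. Its values were singled out after they had been seen, with 0, 1 and 0 reads in control and 8, 6 and 10 reads in Rnf40ΔSC libraries. Ifnlr1 is the specific chain of the interferon-lambda receptor and was detected in every Rnf40ΔSC library and in no control library by the limit of 3 reads. The ratio of pooled reads was 19.7 (exact 95% interval 3.22 to 811), and without a filter on low counts edgeR gave an adjusted p of 0.00116 over 17139 genes.

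Stat2, which transmits the signal of type I interferon receptors, was lower in Rnf40ΔSC nerves. It had 45, 75 and 79 reads in control and 39, 28 and 54 reads in Rnf40ΔSC libraries and fell from 38.0 ± 3.69 to 18.7 ± 3.01 CPM (SD, n = 3 each; log2 fold change -1.005, SE 0.20, edgeR adjusted p = 0.000112). The call held under every alternative run. The kinase Jak1 was not called and had a log2 fold change of 0.17 (SE 0.10, edgeR adjusted p = 0.213), which passed the threshold with total-count scaling alone (log2 fold change 0.44, adjusted p = 0.000659, range 0.000659 to 0.446). Stat2 was thus lower while its partner Irf9 overlapped between the genotypes.

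Among 6 other interferon regulatory factors and their binding proteins tested, out of 8, the call was for Irf2bp2, a corepressor that binds Irf2 (log2 fold change 0.44, SE 0.10, edgeR adjusted p = 0.00109). The median of the 6 was -0.03 on the log2 scale. Genes that restrain interferon signalling were all tested, and 3 of 12 were called, all higher, beside 31.6% called over all genes, 15.4% as higher. The median log2 fold change of the 12 was 0.11, and whether they differed from all genes was not tested. These 3 belong to the Pias family, which encodes inhibitors of activated STAT proteins. Pias1 rose by 0.71 on the log2 scale (SE 0.17, edgeR adjusted p = 0.00115) and Pias2 by 0.41 (SE 0.11, edgeR adjusted p = 0.00546). Pias4 passed narrowly (log2 fold change 0.68, SE 0.27, edgeR adjusted p = 0.0483) and lost its call under 8 of 12 alternatives, including 5 of the 6 in which 1 library was left out. The adjusted p of Pias4 by edgeR was then 0.0545, 0.107 and 0.193 without control replicates 1, 2 and 3 and 0.161 and 0.129 without Rnf40ΔSC replicates 1 and 2 (range over all alternatives 0.00432 to 0.224). The remaining family member, Pias3, named after its values were seen, was not called and had a log2 fold change of -0.26 (SE 0.14, edgeR adjusted p = 0.169), or 0.0104 with total-count scaling. Ptpn11, a phosphatase and the highest of the 12 in mean CPM over the 6 libraries, had a log2 fold change of 0.03 (SE 0.13, edgeR adjusted p = 0.898).

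Sensors of nucleic acids and their adaptors, which lie upstream of interferon production, did not include a gene called higher by edgeR with TMM scaling (1 of 19 at an unadjusted p under 0.05, 0 by DESeq2). Of the 19 tested out of 24, 3 were called lower, and the median log2 fold change was -0.16. With total-count scaling 2 were called higher, the 3 lower calls were lost and the median was 0.107. Samhd1, which degrades deoxynucleotides, had a log2 fold change of -0.56 (SE 0.12, edgeR adjusted p = 0.000509), and total-count scaling ended its call (adjusted p = 0.0653, range 0.000142 to 0.0653). Tlr2, a receptor for bacterial lipopeptides, was lower by -1.05 on the log2 scale (SE 0.39, edgeR adjusted p = 0.0345). Myd88, the adaptor of most Toll-like receptors, was lower by -0.78 (SE 0.28, edgeR adjusted p = 0.0271). Both are weak calls that were lost under 6 of 12 alternatives for Myd88 and 6 of 11 for Tlr2. For Tlr2 edgeR gave an adjusted p of 0.0886 and 0.189 without control replicates 1 and 3 and of 0.115 and 0.102 without Rnf40ΔSC replicates 2 and 3 (range over all alternatives 0.0286 to 0.195). For Myd88 it was 0.0502 and 0.164 without control replicates 1 and 3 and 0.134 and 0.0651 without Rnf40ΔSC replicates 1 and 2 (range 0.0111 to 0.171).

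The wider set of interferon-stimulated genes had a median below that of all genes. Of 78 such genes besides the 9, 75 had a read and 45 had enough reads for the test. Of these 45, 36 had a log2 fold change below 0 and the median was -0.20, against -0.00255 over all genes. The test called 9 of the 45 lower and 3 higher, beside 16.2% lower and 15.4% higher over all genes. Whether the set differed from all genes was not tested. With total-count scaling, which shifts the median of all genes by 0.269 on the log2 scale, the median of the 45 was 0.07 against 0.267 over all genes, and 2 were called lower and 3 higher. The median of the set thus lay below that of all genes with either scaling, while its sign followed the shift. The called genes were also fewer without single libraries, with 4 lower without control replicate 3, 5 lower without Rnf40ΔSC replicate 2, and 1 higher without control replicate 1, without control replicate 2 or without Rnf40ΔSC replicate 2. Without Rnf40ΔSC replicate 3, 7 were lower and 3 higher.

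Ifit2, a neighbour of Ifit1 and Ifit3 on chromosome 19 (34625184 to 34650909 in mm9) with a related RNA-binding product, fell together with Stat2. It had 51, 95 and 114 reads in control and 65, 40 and 62 reads in Rnf40ΔSC libraries, without overlap after scaling (48.6 ± 6.08 against 26.0 ± 1.52 CPM, SD, n = 3 each). Its log2 fold change was -0.91 (SE 0.17, edgeR adjusted p = 6.96e-05), and the call held under every alternative run. Xaf1, which promotes apoptosis, was lower by -0.91 (SE 0.27, edgeR adjusted p = 0.00762), a call lost with total-count scaling (adjusted p = 0.0514) and DESeq2 (0.0761; range 0.00564 to 0.0761). Sp100, a component of PML nuclear bodies, had a log2 fold change of -0.70 (SE 0.26, edgeR adjusted p = 0.0342). It lost its call with total-count scaling (edgeR adjusted p = 0.183), with DESeq2 (0.203), without control replicate 2 or 3 and without Rnf40ΔSC replicate 2 or 3 (edgeR adjusted p = 0.135, 0.134, 0.119 and 0.0626, range over all alternatives 0.0243 to 0.203). Genes called higher included Daxx, which binds PML bodies, and Trim25, a ubiquitin ligase that activates the sensor RIG-I. Daxx had a log2 fold change of 0.54 (SE 0.21, edgeR adjusted p = 0.042). Without control replicate 1 or 2 or Rnf40ΔSC replicate 1 or 2 its edgeR adjusted p was 0.126, 0.131, 0.145 and 0.073, and it moved to 0.0517 with the replicate block and to 0.0504 without a filter on low counts, while DESeq2 gave 0.193 (range over all alternatives 0.00176 to 0.193). Trim25, named after its values were seen because few genes were called higher, had a log2 fold change of 0.53 (SE 0.19, edgeR adjusted p = 0.0289). Its edgeR adjusted p was 0.0836, 0.0837 and 0.0614 without control replicates 1, 2 and 3 and 0.157 without Rnf40ΔSC replicate 2, and DESeq2 gave 0.138 (range over all alternatives 0.000933 to 0.157).

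Many classical interferon-stimulated genes were near the limit of detection in both genotypes. Named after their values were seen, Mx1, a GTPase against RNA viruses, had 1, 1 and 2 reads in control and 4, 0 and 1 reads in Rnf40ΔSC libraries. Rsad2, or viperin, had 5, 9 and 7 reads in control and 4, 9 and 7 in Rnf40ΔSC libraries, and Oas2, which makes the activator of RNase L, had 6, 11 and 7 against 2, 2 and 12. None of the 3 had enough reads for the test. Genes of ISG15 conjugation were not called (0 of 3 by edgeR, 0 of 3 at an unadjusted p under 0.05, 0 of 3 by DESeq2), with Ube2l6, the conjugating enzyme, at a log2 fold change of -0.43 (SE 0.27, edgeR adjusted p = 0.232).

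Genes that respond chiefly to interferon-gamma gave a mixed picture. Of 23, 10 were tested, 1 was called higher and 1 lower, and the median log2 fold change was -0.05. The gene called higher was Cxcl11. The gene called lower was Gbp9, a guanylate-binding GTPase, with a log2 fold change of -1.35 (SE 0.37, edgeR adjusted p = 0.00457). The Gbp9 call was lost with DESeq2 (adjusted p = 0.0635) and without control replicate 3 (edgeR adjusted p = 0.112, range over all alternatives 0.00166 to 0.112), the library with the most Gbp9 reads (8, 22 and 38 in control against 13, 10 and 8 in Rnf40ΔSC libraries). Gbp7 was the highest in CPM, with a log2 fold change of -0.41 (SE 0.17, edgeR adjusted p = 0.0656).

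The 3 ligands of Cxcr3 did not move alike. Cxcl11, which binds Cxcr3 with Cxcl9 and Cxcl10, had 3, 8 and 4 reads in control and 18, 17 and 20 reads in Rnf40ΔSC libraries, and the groups did not overlap (2.91 ± 1.42 against 8.81 ± 1.53 CPM, SD, n = 3 each). It was higher in Rnf40ΔSC nerves (log2 fold change 1.58, SE 0.44, edgeR adjusted p = 0.00457), but not with DESeq2 (adjusted p = 0.0531) or without control replicate 3 (edgeR adjusted p = 0.0632, range over all alternatives 0.000759 to 0.0632). Of its exon bases in mm9, 1582 are shared with the pseudogene Gm2673, so that part of its reads is uncertain. Cxcl9, which interferon-gamma induces, had 2, 5 and 13 reads in control and 3, 0 and 5 reads in Rnf40ΔSC libraries, a ratio of 0.329 (exact 95% interval 0.125 to 0.779) with overlapping groups. Cxcr3 itself was undetected in both genotypes, with 0, 2 and 2 reads in control and 1, 0 and 1 reads in Rnf40ΔSC libraries. Per kilobase of exon, Cxcl10 at 13 ± 2.2 CPM per kb was well above Cxcl11 at 2.32 ± 0.403 and Cxcl9 at 0.382 ± 0.357 in Rnf40ΔSC nerves (SD, n = 3 each).

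Among chemokines outside the Cxcr3 group, 10 of 34 were tested, of which 3 were called higher and 2 lower, at a median log2 fold change of 0.00157. Cxcl14, a chemokine made by epithelia and stromal cells, had 8, 12 and 14 reads in control and 146, 155 and 175 reads in Rnf40ΔSC libraries. It differed by about as much as Cxcl10 (log2 fold change 3.54, SE 0.22, edgeR adjusted p = 1.12e-15), and its RefSeq promoter window also holds the ISRE core and GAS letters. Cx3cl1, or fractalkine, a membrane-bound ligand for microglia and macrophages, had 7, 8 and 14 reads in control and 95, 66 and 89 reads in Rnf40ΔSC libraries (log2 fold change 2.82, SE 0.25, edgeR adjusted p = 1.16e-11). No ISRE core, GAS or NF-kB letters were found in the Cx3cl1 window. In Rnf40ΔSC nerves the level of Cxcl14 was 42.1 ± 9.6 CPM per kb and that of Cx3cl1 10.6 ± 0.654 CPM per kb (SD, n = 3 each), so that Cxcl14 lay above Cxcl10 and Cx3cl1 near it.

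Ccl25, a chemokine of thymus and gut, had 1, 7 and 10 reads in control and 30, 9 and 20 reads in Rnf40ΔSC libraries (log2 fold change 1.42, SE 0.44, edgeR adjusted p = 0.0113). The Ccl25 call was lost with DESeq2 (adjusted p = 0.0925) and, by edgeR, without control replicate 1 (adjusted p = 0.0692) or Rnf40ΔSC replicate 1 (0.129; range over all alternatives 0.0021 to 0.129). Cxcl12, the chemokine with the highest CPM, was lower, with 259 ± 13.3 CPM in control and 193 ± 7.59 CPM in Rnf40ΔSC nerves (SD, n = 3 each; log2 fold change -0.42, SE 0.09, edgeR adjusted p = 0.000589). Total-count scaling ended the Cxcl12 call (log2 fold change -0.15, edgeR adjusted p = 0.213, range 0.000461 to 0.213). Ccl9, a ligand of Ccr1, had a log2 fold change of -0.66 (SE 0.23, edgeR adjusted p = 0.0238) with overlapping groups. It lost its call with total-count scaling (0.175), with DESeq2 (0.151) and without control replicate 2 (0.253) or 3 (0.0515) or Rnf40ΔSC replicate 1 (0.0747) or 2 (0.106) by edgeR's adjusted p (range over all alternatives 0.00731 to 0.253).

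Of 22 chemokine receptors 8 were tested, 2 were called higher and 1 lower, and the median log2 fold change was -0.09. Cxcr4, the receptor of Cxcl12, had 10, 12 and 23 reads in control and 61, 52 and 65 reads in Rnf40ΔSC libraries (log2 fold change 1.71, SE 0.25, edgeR adjusted p = 9.65e-07), so that receptor and ligand differed in opposite directions. Ackr1, which binds chemokines on venules without signalling, was higher by 0.91 on the log2 scale (SE 0.12, edgeR adjusted p = 8.2e-08). Ccr2, the receptor that draws monocytes into tissue, was lower, with 13, 23 and 13 reads in control and 8, 4 and 13 in Rnf40ΔSC libraries (log2 fold change -1.28, SE 0.41, edgeR adjusted p = 0.0148). The Ccr2 call was lost with DESeq2 (adjusted p = 0.0958) and, by edgeR, without control replicate 1 (adjusted p = 0.0513) or 2 (0.15) or Rnf40ΔSC replicate 1 (0.0688) or 2 (0.0613; range over all alternatives 0.00801 to 0.15).

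**Figure D2:**
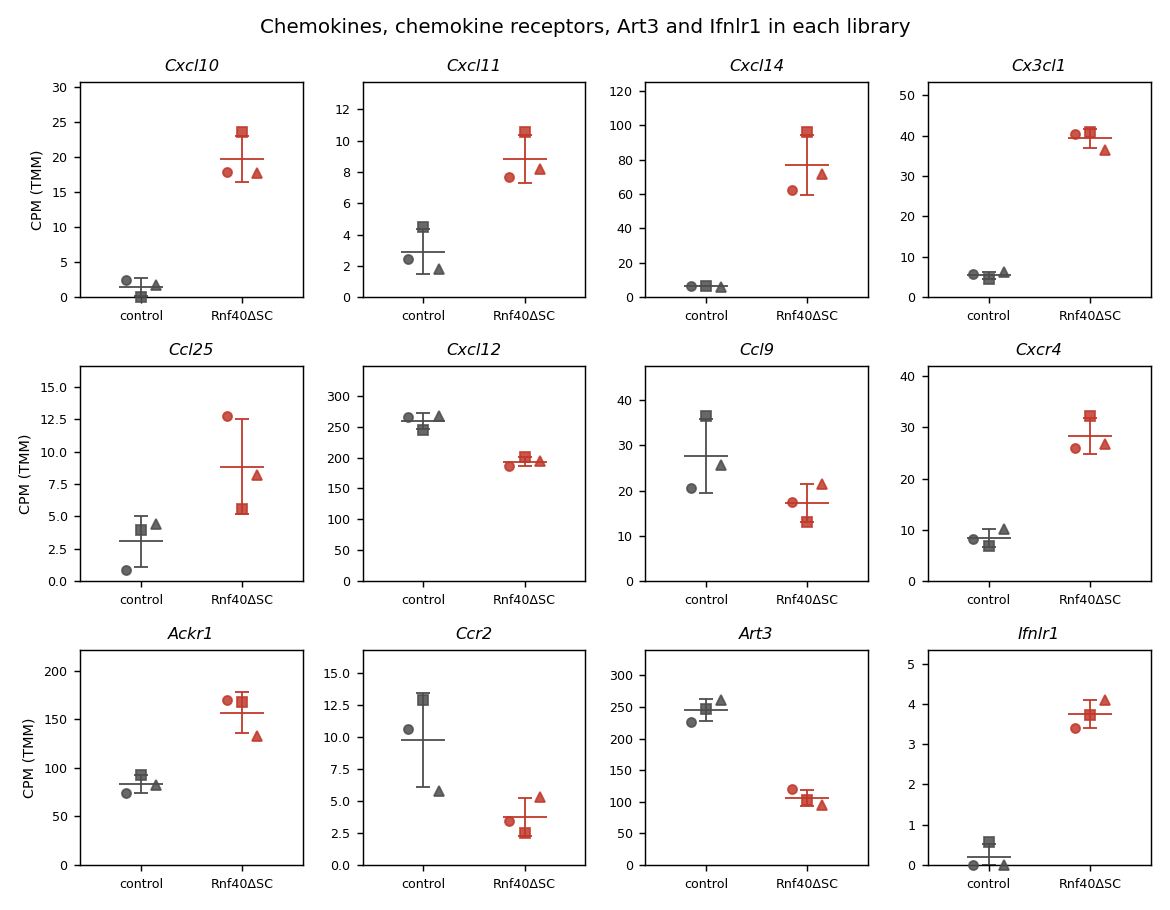
Level in CPM after TMM scaling (vertical axes, from 0, each with its own scale) of Cxcl10, 6 other chemokines, 3 chemokine receptors, Art3, within which Cxcl10 lies on the opposite strand, and Ifnlr1 in 3 control and 3 Rnf40ΔSC libraries; circles, squares and triangles are replicates 1, 2 and 3, horizontal lines are means and error bars SD, drawn no lower than 0. Cxcl10, Cxcl11, Cxcl14, Cx3cl1, Ccl25, Cxcr4, Ackr1 and Ifnlr1 are higher in every Rnf40ΔSC library than in any control library, Cxcl12, Ccr2 and Art3 are lower, and the groups of Ccl9 overlap.

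NF-kB can induce Cxcl10 without interferon, and transcripts of its subunits, inhibitors and targets were therefore followed too. Such transcript levels do not measure the activity of NF-kB, and its part in the difference of Cxcl10 was not tested. Of 23 genes 15 were tested, 3 were called lower and the median log2 fold change was -0.27, or 0.00247 with total-count scaling (all genes 0.267). By edgeR 0 of 15 were called higher, as were 0 at an unadjusted p under 0.05 and 0 by DESeq2. Rela, the main activating subunit, was lower by -0.45 (SE 0.13, edgeR adjusted p = 0.00745). Its call was lost with total-count scaling (adjusted p = 0.304), with DESeq2 (0.0626) and, by edgeR, without control replicate 1 (0.0578) or Rnf40ΔSC replicate 1 (0.0956; range over all alternatives 0.00482 to 0.304). Nfkbib, an inhibitor that keeps NF-kB in the cytoplasm, was lower by -1.38 (SE 0.32, edgeR adjusted p = 0.00605), with more reads in Rnf40ΔSC replicate 3 (57) than in replicates 1 and 2 (27 and 14). Without Rnf40ΔSC replicate 3, the log2 fold change of Nfkbib was -1.93 (edgeR adjusted p = 2.82e-08, range over all alternatives 1.99e-09 to 0.0392). Bcl3, an atypical member of the inhibitor family, was lower by -1.36 (SE 0.44, edgeR adjusted p = 0.0148), a call lost with DESeq2 (adjusted p = 0.106) and, by edgeR, without control replicate 1 (0.0745) or Rnf40ΔSC replicate 2 (0.0794; range 0.0133 to 0.106). Nfkb1 was the highest in CPM and had a log2 fold change of -0.19 (SE 0.11, edgeR adjusted p = 0.208). The cytokines Il1b and Il6 had 0 reads in all 6 libraries and Tnf had 1, so that these inducers were not detectable at this depth.

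The genes whose levels followed that of Cxcl10 most closely over the 6 libraries were Apoc1 (Pearson's r = 0.998), Ppargc1a (0.998), Mapk10 (0.997), Smc5 (0.997) and Baalc (0.997), measured on log2 CPM. These are descriptions without a test, because the libraries form 2 groups by genotype and any gene that differs evenly between them follows Cxcl10, as 278 of 11370 genes did with an r above 0.95. With smaller or larger prior counts in the log2 CPM, 3 of these 5 genes were again among the closest 5, and with Spearman's rank correlation 0 were. Apoc1 encodes an apolipoprotein, Ppargc1a a coactivator of mitochondrial genes, Mapk10 a JNK kinase, Smc5 a subunit of a complex for DNA repair and Baalc a protein of neuroectodermal tissue. None of the 5 is among the interferon-stimulated genes described above. Isg15, the other gene planned for this ranking, had too few reads.

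Because interferon-stimulated genes and chemokines are expressed by immune as well as resident cells, lists of cell type markers were set beside them. From read counts of bulk nerve, fewer cells of a type and less RNA per cell cannot be told apart, which applies to every value above. Macrophage markers were lower, with summed levels of 687, 631 and 657 CPM in control and 451, 452 and 450 CPM in Rnf40ΔSC libraries. These sums are levels of RNA and not cell numbers. By staining, the study counted a higher share of Iba1-positive macrophages in Rnf40ΔSC nerves at this age. In its own RNA-Seq of this age, the study saw no substantial rise of inflammation or immune response genes by gene set analyses. The reason for the opposite directions of marker RNA and staining was not tested. Of 19 macrophage markers 16 were tested, all 16 had a log2 fold change below 0 with a median of -0.45, and 9 were called lower. The highest in CPM was Csf1r, the receptor for macrophage colony-stimulating factor (log2 fold change -0.63, SE 0.13, edgeR adjusted p = 0.000294), and each of the 19 had a read. The direction of the macrophage median was kept with total-count scaling (-0.18, with 4 called lower), and 4 were called lower by DESeq2, 5 without control replicate 2 and 6 without Rnf40ΔSC replicate 1. Cxcl10 therefore differed in the opposite direction to macrophage markers, while Ifit2, Stat2 and Tlr2 differed in the same direction, as did Ccr2, which is itself 1 of the 19 markers, and the part of macrophages in these results was not tested.

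Most lymphocyte markers were scarce. Of 11 T cell markers 2 were tested, with summed levels of 80.2, 56.7 and 73.2 CPM in control and 44.8, 56.4 and 55.8 CPM in Rnf40ΔSC libraries, mostly from Thy1, which fibroblasts and neurons also express. Thy1 was lower by -0.68 (SE 0.16, edgeR adjusted p = 0.00077). The defining T cell gene Cd8a had 0 reads in all libraries, Cd3e had 0, 1 and 0 reads in control and 0, 2 and 0 in Rnf40ΔSC libraries, and Cd3d had a single read in Rnf40ΔSC replicate 3. The marker called higher was Cd4, which macrophages can express too, with 0, 3 and 6 reads in control and 14, 16 and 22 reads in Rnf40ΔSC libraries (log2 fold change 2.24, SE 0.52, edgeR adjusted p = 0.000784). The Cd4 call held under all 11 alternatives that tested it. NK cell markers summed to 0.818, 3.37 and 0.887 CPM in control and 0.426, 3.10 and 1.23 CPM in Rnf40ΔSC libraries, with Klrb1c the highest in CPM and Ncr1, Klrd1, Gzma, Gzmb and Prf1 at 0 in all libraries. The 5 B cell markers had 1 read in all controls and 6 in Rnf40ΔSC replicate 3, with Cd79a and Pax5 at 0. The 7 neutrophil markers had 0 to 9 reads a library, with Ngp the highest in CPM and Mpo and Elane at 0. Apart from Thy1 and Cd4, which other cells of the nerve can express, markers of the T cells and NK cells that Cxcl10 attracts thus had too few reads for the test.

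Of 6 markers of plasmacytoid dendritic cells, the main producers of type I interferon, 3 were tested and had log2 fold changes below 0 (2 of 3 with total-count scaling), and by edgeR 0 were called (0 at an unadjusted p under 0.05, 0 by DESeq2). Tcf4, the highest of them in CPM, is widely expressed and had a log2 fold change of -0.08 (SE 0.10, edgeR adjusted p = 0.588). Mast cell markers summed to 66.3, 77.5 and 95.0 CPM in control and 56.7, 44.0 and 43.9 CPM in Rnf40ΔSC libraries, with 3 of 5 tested called lower (1 without control replicate 3, 1 by DESeq2, 2 with total-count scaling) and Cpa3, a carboxypeptidase, the highest in CPM. Schwann cell markers, the cells that lose Rnf40, summed to 131100, 150800 and 142600 CPM in control and 37360, 35310 and 35780 CPM in Rnf40ΔSC libraries. Of 12 Schwann cell markers 9 were called lower and 2 higher (1 without control replicate 3). Schwann cell transcripts were thus abundant in both genotypes and lower in Rnf40ΔSC nerves. Markers of fibroblasts were called lower for 6 of 7, of perineurial cells for 3 of 4, of endothelial cells for 4 of 7, of pericytes or smooth muscle for 4 of 6 and of adipocytes for 3 of 6 genes tested. Their genes with the highest CPM were Col3a1, Itgb4, Cdh5, Pdgfrb and Fabp4. With total-count scaling these numbers fell to 3 (and 1 higher), 2, 1, 2 and 2 in the same order, and the medians of the 5 lists were -0.395 to -0.103, against 0.267 over all genes. The part of resident cells in the values of the interferon-stimulated genes was not tested. Of the 14 skeletal muscle markers tested, 0 were called by edgeR (0 at an unadjusted p under 0.05, 0 by DESeq2) with Rnf40ΔSC replicate 3 and 12 were called lower without it.

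**Figure D3:**
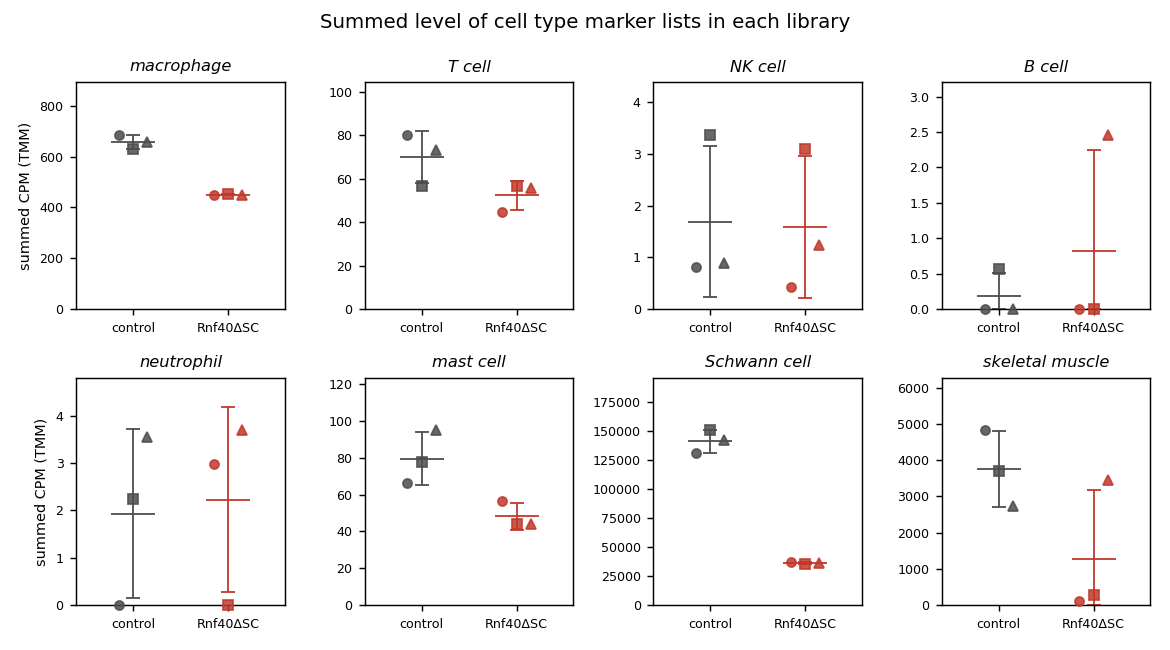
Summed CPM after TMM scaling of 8 lists of cell type markers (vertical axes, from 0, each with its own scale) in 3 control and 3 Rnf40ΔSC libraries; circles, squares and triangles are replicates 1, 2 and 3, horizontal lines are means and error bars SD, drawn no lower than 0. Macrophage, mast cell and Schwann cell markers are lower in every Rnf40ΔSC library than in any control library, NK cell, B cell and neutrophil markers stay at 3.69 CPM or less, and skeletal muscle genes separate Rnf40ΔSC replicate 3 from replicates 1 and 2.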

How the data were processed

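The authors pooled RNA of 3 sciatic nerves per library, sequenced it on the Illumina HiSeq platform, aligned reads to mm9 with TopHat and counted uniquely mapped reads per gene with HTSeq. They deposited raw counts, without normalization, for 3 control and 3 Rnf40ΔSC libraries. The submitters' notes list Bowtie2 2.1.0, HTSeq and DESeq2. The strand setting and gene annotation of the counting are not given in the sources used here. A directional kit and C3H x C57Bl/6J mice are given in the methods, whereas the labels of all 6 libraries name the NEB Next Ultra kit and 129SvJ/C57Bl/6J. Groups and replicate numbers were taken from the sample titles.

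Library totals of 1317167 to 2468765 counts leave genes with up to 3 reads per library undetected. Pairs of replicates differed by more than sampling noise (chi-square per degree of freedom 1.78 to 5.21) and were treated as separate samples.

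Counts were filtered with filterByExpr, which kept 11371 genes, scaled by TMM and tested with edgeR 4.0.16 in R 4.3.3 (robust quasi-likelihood fit, genotype as the only term, Benjamini-Hochberg adjustment, with a limit of 0.05 on the adjusted p). SE are standard errors of the log2 fold change from this fit. CPM were computed from the counts with TMM-scaled library sizes. Ratios of pooled reads carry exact conditional binomial intervals at a confidence level of 0.95. Likeness to Cxcl10 was Pearson's r of log2 CPM with a prior count of 2.

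Positions and exon lengths were taken from GENCODE vM1 (NCBIM37, mm9), promoter windows from RefSeq (GRCm38.p6), and coordinates of these builds were not mixed. Copies of at least 50 bases were sought in mm9 with blastn 2.17.0. The procedure was tested on simulated data.

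The 9 genes and all gene lists were chosen with earlier results of these data known. Named are the 9 genes, Rnf40, up to 6 called genes per list by size of the log2 fold change, the gene of each list with the highest mean CPM over the 6 libraries (not corrected for exon length), the 5 genes most like Cxcl10, and markers at 0. Some genes of the lists are not reported here by name. Other names were singled out after their values were seen, which was also true of the overlap and copy checks. Alternatives were RLE or total-count scaling, no filter or at least 10 counts in every library, DESeq2 1.42.0, a block for the replicate number, the omission of single libraries, the study's thresholds for calls, and other prior counts or Spearman's correlation for likeness. The chromatin data of the study were not analysed here.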

Additional observations from a re-analysis of the deposited data

How the results depend on the processing

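Cxcl10 had a log2 fold change of 3.81, of 4.07 with total-count scaling, of 3.88 with DESeq2, of 3.80 with the replicate block and of 3.23 to 4.22 when single libraries were left out. With at least 10 counts in every library Cxcl10 and Ifit3 could not be fitted, and likeness to Isg15 was not run because its reads were too few. Irf9 moved from 0.20 to 0.47 with total-count scaling.

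Genes called higher numbered 1756, and 3766 with total-count scaling, 1110 with DESeq2, 415 with the study's thresholds (a log2 fold change of 0.8 or more in either direction and a mean normalized count of 20 or more) and 1293 to 1915 without single libraries. Genes called lower numbered 1841, and 880, 1178, 567 and 1439 to 1992 in the same order. Total-count scaling raised the share of higher among all calls from 48.8% to 81.1%, as its median over all genes lies 0.269 higher on the log2 scale. Interferon-stimulated genes called higher numbered 3, and 1 with DESeq2, 0 with the study's thresholds and 1 to 3 without single libraries. Those called lower numbered 9, and 2 with total-count scaling, 2 with DESeq2, 3 with the study's thresholds and 4 to 8 without single libraries. DESeq2 here tested 13556 genes, and the cause of its fewer calls was not tested.

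Among the single values named in the text, 20 called genes lost their call with DESeq2, 12 with total-count scaling and 3 to 12 without single libraries, and 4 uncalled genes were called with total-count scaling. No called gene changed sign. Smaller log2 fold changes did so in Ptpn11 (-0.000102 with the replicate block, -0.0568 without Rnf40ΔSC replicate 1, -0.0459 without replicate 3, and up to 0.188 without other libraries), in Pias3 (0.0104), Nfkb1 (0.0757) and Tcf4 (0.185) with total-count scaling, in Irf1 (-0.05 without control replicate 1, -0.02 without Rnf40ΔSC replicate 1) and in Ifit3 (0.00301 with total-count scaling).

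Same-numbered libraries did not deviate together (correlations -0.0948, -0.015 and -0.0621 across genes), so the numbers were not taken to pair them. The replicate block gave 1727 higher and 1837 lower calls and ended the calls of Daxx and Pias4. Libraries of 1317167 to 2468765 counts cannot resolve differences in genes with a few reads, which holds for Irf7, Ifit1, Isg15, Usp18 and Bst2.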

Other observations

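Genes of the Ifi200 family, interferon-inducible proteins that bind DNA in the nucleus or cytosol, had log2 fold changes below 0 where they could be tested. Of 11 genes of the family 4 had enough reads, all 4 had a log2 fold change below 0 with a median of -0.63, and 2 were called. With total-count scaling, without control replicate 3 or without Rnf40ΔSC replicate 3, 3 of 4 were below 0. AI607873 had 27, 40 and 55 reads in control and 29, 18 and 31 reads in Rnf40ΔSC libraries (log2 fold change -0.92, SE 0.23, edgeR adjusted p = 0.00222), and its call held under every alternative run. Ifi203 was lower by -0.70 (SE 0.26, edgeR adjusted p = 0.0342). The Ifi203 call was lost with total-count scaling (edgeR adjusted p = 0.19), with DESeq2 (0.195), without control replicate 1 or 3 and without Rnf40ΔSC replicate 1 or 3 (edgeR adjusted p = 0.126, 0.108, 0.168 and 0.0739, range over all alternatives 0.0147 to 0.195). Mndal, the highest of the family in CPM, had a log2 fold change of -0.56 (SE 0.23, edgeR adjusted p = 0.0543) and passed the threshold without control replicate 2 (0.0294, range 0.0294 to 0.319). These genes lie in a cluster of close copies, so that reads may have been divided or dropped among them.

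Stress-response genes that accompany chemokine induction did not all move in 1 direction. Of 12 genes 11 were tested, 1 was called higher and 2 lower, beside 15.4% higher and 16.2% lower over all genes. The median log2 fold change was 0.11. With total-count scaling 6 were called higher and 2 lower, and the median was 0.376. Egr1, an immediate-early transcription factor, was higher by 0.68 (SE 0.17, edgeR adjusted p = 0.00211). Atf4, the main factor of the integrated stress response, was lower by -0.57 (SE 0.10, edgeR adjusted p = 3.92e-05), and both calls held under every alternative run. Gadd45b was lower by -1.37 (SE 0.45, edgeR adjusted p = 0.0151), a call lost with DESeq2 (adjusted p = 0.139) and, by edgeR, without control replicate 3 (0.107) or Rnf40ΔSC replicate 1 (0.0774; range over all alternatives 0.0155 to 0.139). Cdkn1a, the highest in CPM, had a log2 fold change of 0.07 (SE 0.09, edgeR adjusted p = 0.59). With total-count scaling Cdkn1a was called (log2 fold change 0.34, edgeR adjusted p = 0.0014, range over all alternatives 0.0014 to 0.978).

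Rnf20, the partner of Rnf40 in the E3 ligase and named after its values were seen, had 80, 117 and 130 reads in control and 213, 153 and 172 reads in Rnf40ΔSC libraries. It was higher (log2 fold change 0.44, SE 0.13, edgeR adjusted p = 0.00998), a call lost with DESeq2 (adjusted p = 0.0654) and, by edgeR, without control replicate 3 (0.087) or Rnf40ΔSC replicate 1 (0.057; range over all alternatives 5.82e-05 to 0.087). Among the neighbours of Cxcl10 beyond Cxcl9 on chromosome 5, also looked up after their values were seen, Sdad1 had 20, 20 and 38 reads in control and 41, 28 and 45 in Rnf40ΔSC libraries, and Naaa had 26, 35 and 43 against 57, 50 and 51 reads. Neither was called (edgeR adjusted p = 0.44 for Sdad1 and 0.249 for Naaa), and Naaa passed the threshold with total-count scaling alone (0.0232, range over all alternatives 0.0232 to 0.593).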
